A study of Mus musculus with 12 samples.

Results

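The RNA levels of 10 cell surface molecules of developing T cells were followed in thymus and lymphoma of mice: the coreceptors Cd4, Cd8a and Cd8b1, the selection-linked receptors Cd5, Cd6 and Cd69, the adhesion and costimulatory receptors Cd2 and Cd28, and the glycolipid-anchored proteins Cd24a and Thy1. They were chosen by name, as 10 of the 50600 gene identifiers counted, and all 10 were among the 16052 genes tested. RNA was sequenced from 3 mice in each of 4 groups. Ctrl mice were DNMT1 fl/fl without Cre recombinase, with both copies of the maintenance DNA methyltransferase gene Dnmt1 flanked by loxP sites, and were 20 to 25 wk old. KO mice were DNMT1 fl/fl CD4-CRE (20 to 21 wk) and ALKKO mice carried the NPM-ALK+ transgene on the DNMT1 fl/fl CD4-CRE background (19 to 25 wk). Thymocytes were taken from Ctrl, KO and ALKKO mice. ALK samples were NPM-ALK+ T cell lymphoma cells from mice of 22 to 31 wk, for which the labels name no Dnmt1 allele. The human fusion kinase NPM-ALK and the Cre recombinase were both driven by Cd4 regulatory sequences, so both are limited to cells that have switched these sequences on, and the animals were of a mixed C57Bl/6 x SV/129 background. Whole tissue was homogenized, so that fewer cells of a type and less RNA per cell cannot be told apart in any value below.

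T cells in the thymus pass from a double-negative stage without CD4 and CD8 to a double-positive stage with both, and then keep 1 coreceptor. CD4 binds MHC class II, and the CD8 alpha and beta chains, encoded by Cd8a and Cd8b1, form a heterodimer that binds MHC class I. Both bring the kinase Lck to the T-cell receptor. CD5 and CD6 are related scavenger receptors that tune T-cell receptor signals, CD69 appears when the receptor has been engaged during selection, and CD24 is high on immature thymocytes and lost during maturation.

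Cd8b1 and Cd8a lie next to each other on chromosome 6 of GRCm38, Cd8b1 from 71322788 to 71337494 and Cd8a from 71373427 to 71379173, both on the plus strand with 35932 bases between them. Cd4 (124864692 to 124888221) and Cd69 (129267325 to 129275436) lie on the minus strand of the same chromosome. Cd5 (10717116 to 10739002) and Cd6 (10789341 to 10830058) are neighbours on the minus strand of chromosome 19, 50338 bases apart. Cd2 is on chromosome 3, Cd28 on chromosome 1, Cd24a on chromosome 10 and Thy1 on chromosome 9. No exon of the 10 genes overlapped an exon of another gene on either strand. Most stretches of 50 bases, the length of a read, were found in no transcript of another gene, but 6.28% of those of Cd8b1 and 2.75% of those of Cd24a were, the latter in the gene Gm6212. Reads from such stretches align to several places and were in no gene's count, so Cd8b1 and Cd24a were counted in part.

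Upstream sequence was at hand for 2 of the 10 genes, Cd8a and Cd5, which are shown because both were lower in the tumors, and because Cd5 had the lowest of the 10 fold changes. The 250 bases before the RefSeq transcription start are given 5′ to 3′ in GRCm38.p6, with matches to CANNTG (E-box) and GGAAGT (ETS core) in capitals.
Cd8a, chr6:71373177-71373426, plus strand: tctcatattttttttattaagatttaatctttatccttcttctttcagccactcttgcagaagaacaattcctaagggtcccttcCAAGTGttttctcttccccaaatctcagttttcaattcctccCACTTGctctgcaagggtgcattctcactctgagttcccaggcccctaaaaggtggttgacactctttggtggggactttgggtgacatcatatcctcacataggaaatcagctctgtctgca
Cd5, chr19:10738975-10739224, minus strand: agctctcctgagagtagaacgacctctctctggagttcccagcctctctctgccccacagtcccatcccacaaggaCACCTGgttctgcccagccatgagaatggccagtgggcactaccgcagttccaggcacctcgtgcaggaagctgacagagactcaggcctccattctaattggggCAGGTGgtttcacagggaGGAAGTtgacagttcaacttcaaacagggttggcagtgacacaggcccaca

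Both windows held 2 letter matches to CANNTG, the E-box recognized by E proteins such as those of Tcf3 and Tcf12, starting 165 and 123 bases before the start of Cd8a and 174 and 69 bases before that of Cd5. Of 32851 RefSeq promoters, 66.2% held at least 1 such match in their 250 bases. The ETS letters GGAAGT were found once, 51 bases before the start of Cd5, and in 19.7% of promoters. Both strands were searched, CANNTG reads as the same pattern on both, and the matches printed do not overlap. Neither window held the RUNX core letters TGTGGT, which 14% of promoters held. The GATA letters AGATAA, present in 9.99% of promoters, were not found in them either. The same was true of the TATA letters TATAAA, present in 12.4% of promoters. A letter match is a description of the sequence and not evidence of binding.

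Library depth, as reads assigned to genes, was 12473857 to 18864327, and values are CPM, the reads of a gene scaled to the same total in all libraries after normalization for composition. Libraries are named by group and replicate, so that ALK1 to ALK3 are the 3 tumors. Dnmt1 ranged in Ctrl from 399.6 to 487 CPM. The KO libraries held 206 to 243 CPM of it, the ALKKO libraries 205 to 244 CPM and the tumors 378 to 787 CPM. Reads on the mouse Alk gene, to which the human transgene could contribute, were at 34.8 to 54.9 CPM in the 6 transgenic libraries and at 0.107 to 0.431 CPM in the others, as their labels give it. KO2, which is also the only library from a female, stood apart. Its 5 B-cell markers were each higher than in all other libraries (summed 4978 CPM against 922 to 2680 CPM in the other 8 thymus libraries), its macrophage and dendritic markers summed to 1510.0 CPM (508 to 787 CPM), its granulocyte markers to 90.9 CPM (5.03 to 41.2 CPM) and its thymic epithelial markers to 74.2 CPM (414 to 673 CPM). Most of the B-cell sums was Ighm, at 3593 CPM in KO2 and 887 to 2642 CPM in the other 8 thymus libraries. Sex and the own state of KO2 cannot be told apart, and KO values are therefore given with and without this library.

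Per kilobase of exon, Cd8b1 was the highest of the 10 transcripts in Ctrl thymocytes at 1027 ± 117 CPM per kb (SD, n = 3), followed by Thy1 (747 ± 103), Cd8a (578 ± 37.9) and Cd4 (334 ± 15.1). Then came Cd2, Cd24a, Cd28, Cd5 and Cd6, from 95.2 down to 36.5 CPM per kb, with Cd69 last at 11.4 ± 1.80 CPM per kb. Cd2 and Cd24a were the only neighbours in this order whose libraries overlapped. The order of the means was the same in KO and ALKKO. In ALK tumors Thy1 (404 ± 87.4 CPM per kb), Cd24a (246 ± 151) and Cd2 (151 ± 129.8) led and Cd8b1 was seventh at 13.0 ± 7.39 CPM per kb. There every pair of neighbours overlapped except Cd8b1 and Cd6. Set against all genes tested, Cd4 stood at the 99.6th percentile per kilobase in Ctrl and at the 72.7th in ALK, and Cd5 moved from the 94th to the 16.6th.

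**Figure D1:**
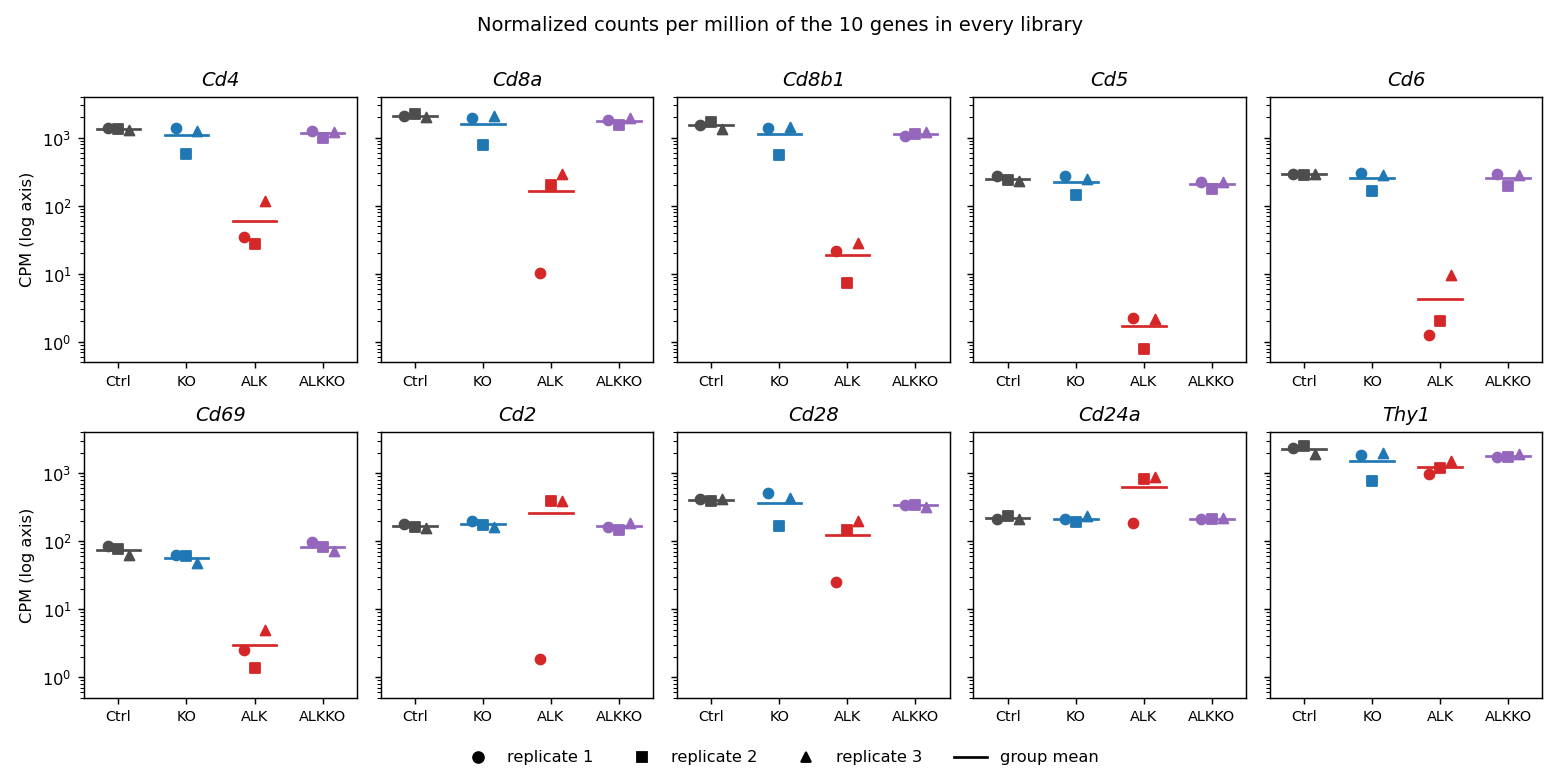
Normalized CPM (logarithmic axis) of the 10 genes in each of the 12 libraries, with the marker shape giving the replicate and the line the mean of 3 mice. Cd5 lies between 0.784 and 2.21 CPM in the 3 ALK tumors and at 175 CPM or above in the Ctrl and ALKKO libraries, and Cd2 and Cd24a split the tumors.

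The comparison of ALK with Ctrl asks how lymphoma cells differ from control thymocytes. Cd4, Cd8a, Cd8b1, Cd5, Cd6 and Cd69 were lower in the tumors and Cd24a was higher, 7 of the 10 genes, by edgeR's quasi-likelihood test at an adjusted p under 0.05 and a change above 1 on the log2 scale. Over all genes tested, 20.4% were called, 12% lower and 8.41% higher. The median log2 fold change was -4.08 over the 10 genes and 0.05 over all genes. Values of the 3 tumors and the 3 Ctrl mice did not overlap for 8 of the 10 genes (all except Cd2 and Cd24a), where 46.3% of all genes tested did not overlap. For a single gene the exact permutation test of 3 mice against 3 cannot give a two-sided p below 0.1.

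Cd4 stood at 1407, 1352 and 1286 CPM in Ctrl and at 35.2, 27.4 and 116 CPM in the tumors. All 3 tumors lay far below every control, and the log2 fold change was -4.50 (SE 0.56, adjusted p = 0.00065). Cd8a, which encodes the CD8 alpha chain, stood at 2074, 2254 and 1983 CPM in Ctrl and at 10.4, 199.7 and 291 CPM in the tumors. ALK1 kept 0.494% of the Ctrl mean of Cd8a, and ALK2 and ALK3 kept 9.49% and 13.8%. Its log2 fold change was -3.65 (SE 0.88, adjusted p = 0.012), and the adjusted p was 0.0522 when only ALK and Ctrl libraries were fitted. Cd8b1, the CD8 beta chain, stood at 1533, 1691 and 1345 CPM in Ctrl and at 21.7, 7.23 and 28.7 CPM in the tumors. It was at 1.89% of the Ctrl mean or less in each tumor, and its log2 fold change was -6.31 (SE 0.56, adjusted p = 0.000133). Without ALK3 the log2 fold changes of Cd4, Cd8a and Cd6 were -5.44, -4.34 and -7.49.

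Cd5 was the gene with the lowest fold change. It stood at 275, 239 and 230.4 CPM in Ctrl and at 2.21, 0.784 and 2.185 CPM in the tumors, which rest on 33, 9 and 28 reads. The log2 fold change was -7.14 (SE 0.41, adjusted p = 6.82e-06). Its neighbour and relative Cd6 stood at 293, 284 and 294 CPM in Ctrl and at 1.27, 2.003 and 9.52 CPM in the tumors (19, 23 and 122 reads). ALK3 kept more Cd6 than the others but still 3.28% of the Ctrl mean, and the log2 fold change was -6.09 (SE 0.68, adjusted p = 0.000443). Cd69, the early activation marker, stood at 84.6, 76.9 and 61.6 CPM in Ctrl and at 2.55, 1.39 and 4.92 CPM in the tumors. Every tumor lay far below every control, and the log2 fold change was -4.64 (SE 0.39, adjusted p = 8.26e-05). Each of these 3 selection-linked receptors was at 6.61% of the Ctrl mean or less in each tumor.

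The adhesion receptor Cd2 split the tumors. It stood at 179, 163 and 155 CPM in Ctrl and at 1.88, 393 and 393 CPM in the tumors, so that ALK1 held 1.13% of the Ctrl mean and the other two held 237%. The log2 fold change was 0.67 (SE 1.03, adjusted p = 0.657), and 1.25 without ALK1 (adjusted p = 0.000245). Cd28, the costimulatory receptor, stood at 409, 395 and 415 CPM in Ctrl and at 24.7, 147 and 200.2 CPM in the tumors. All tumors lay below every control, but the log2 fold change of -1.71 (SE 0.61) had an adjusted p of 0.0558. It passed with DESeq2 (adjusted p = 0.0124), with sex as a term (0.0391), and without KO2 (0.0371), ALK1 (0.0341) or ALK3 (0.0312), 5 of 16 alternatives.

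Cd24a, the heat-stable antigen of immature thymocytes, stood at 214, 234 and 209.5 CPM in Ctrl and at 184, 827 and 889 CPM in the tumors. ALK2 and ALK3 were at 378% and 406% of the Ctrl mean and ALK1 at 83.9%, below all controls. The log2 fold change was 1.53 (SE 0.43, adjusted p = 0.0238). The call was lost on leaving out any 1 Ctrl library, ALK2 or ALK3 (adjusted p 0.0662 to 0.0805), with age as a term (0.0641) and with only ALK and Ctrl fitted (0.0934). Thy1, a pan-T-cell marker, stood at 2316, 2498 and 1895 CPM in Ctrl and at 954, 1195 and 1477 CPM in the tumors. It kept 42.7% to 66.1% of the Ctrl mean, and was not called (log2 fold change -0.89, SE 0.32, adjusted p = 0.0579). Without ALK3 it was -1.07 (adjusted p = 0.0467).

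**Figure D2:**
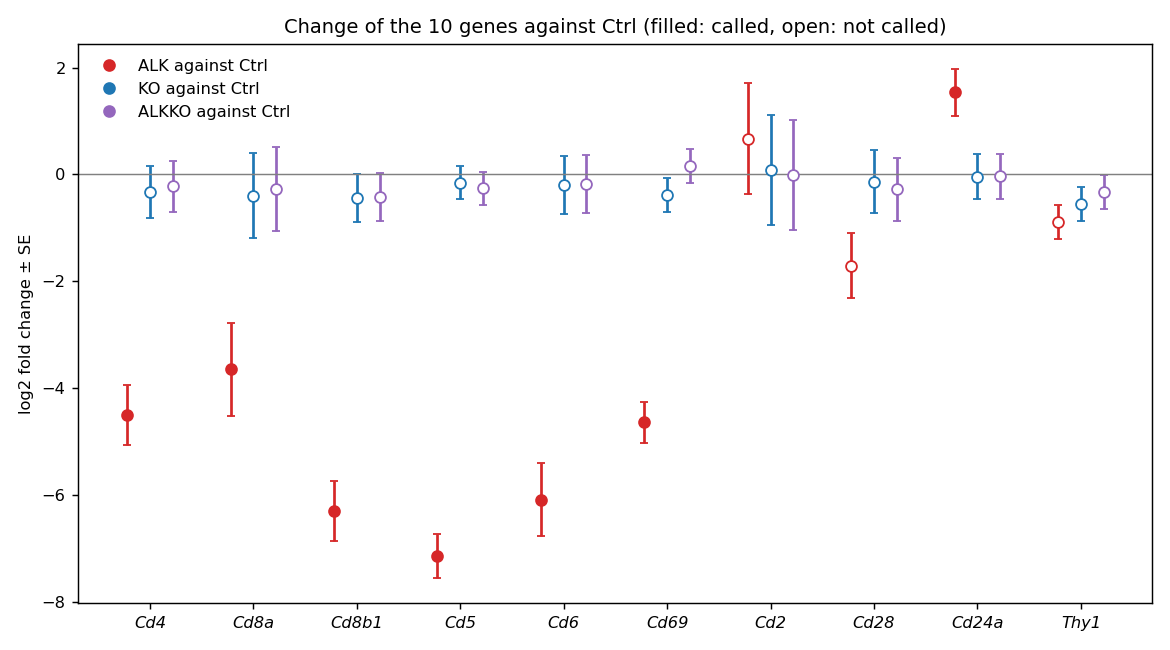
Log2 fold change ± SE of each gene against Ctrl in ALK, KO and ALKKO (3 mice each, edgeR), with filled points for genes called. The ALK points of 6 genes lie between -3.65 and -7.14 and that of Cd24a at 1.53, while the KO and ALKKO points lie between -0.56 and 0.16.

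The tumors thus differed among themselves. The highest tumor over the lowest (with 0.1 CPM added to both) was 199-fold for Cd2, 27.7-fold for Cd8a, 8.08-fold for Cd28 and 6.999-fold for Cd6. Over the 11780 tested genes that averaged 5 CPM or more this spread had a median of 1.65 and a 90th percentile of 5.96 in the tumors. The other 6 genes spread by 1.55-fold (Thy1) to 4.83-fold (Cd24a). In Ctrl the 10 genes spread by 1.03-fold to 1.37-fold.

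Coreceptor ratios within a library show the same split and do not depend on library scaling. The log2 ratio of Cd8b1 to Cd8a CPM was -0.75 to -0.39 in the 9 thymus libraries, KO2 included at -0.51. In the tumors it was 1.06, -4.79 and -3.34. ALK1 lay above every thymus library and ALK2 and ALK3 far below, with Cd8b1 CPM at 0.0362 of Cd8a CPM in ALK2. The mean difference of ALK minus Ctrl was -1.89, within the spread of the tumors (SD 3.05, n = 3; exact two-sided permutation p = 0.4), and -3.59 without ALK1 (exact p = 0.2, the smallest that the exact test of 2 against 3 can give). It was -0.67 without ALK2.

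The log2 ratio of Cd4 to Cd8a CPM was -0.75 to -0.43 in the 9 thymus libraries and 1.76, -2.86 and -1.33 in the tumors. The ratio was again higher than in thymus in ALK1 and lower in the other tumors. The mean difference of ALK minus Ctrl was -0.17 (exact permutation p = 1). It was -1.46 without ALK1, 0.86 without ALK2 and 0.09 without ALK3, so its sign rests on single tumors. Differences of KO and ALKKO from Ctrl were -0.14 to 0.10 for both ratios (exact permutation p 0.4 to 0.6). All 6 comparisons had Benjamini-Hochberg adjusted values of 0.72 or above.

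**Figure D3:**
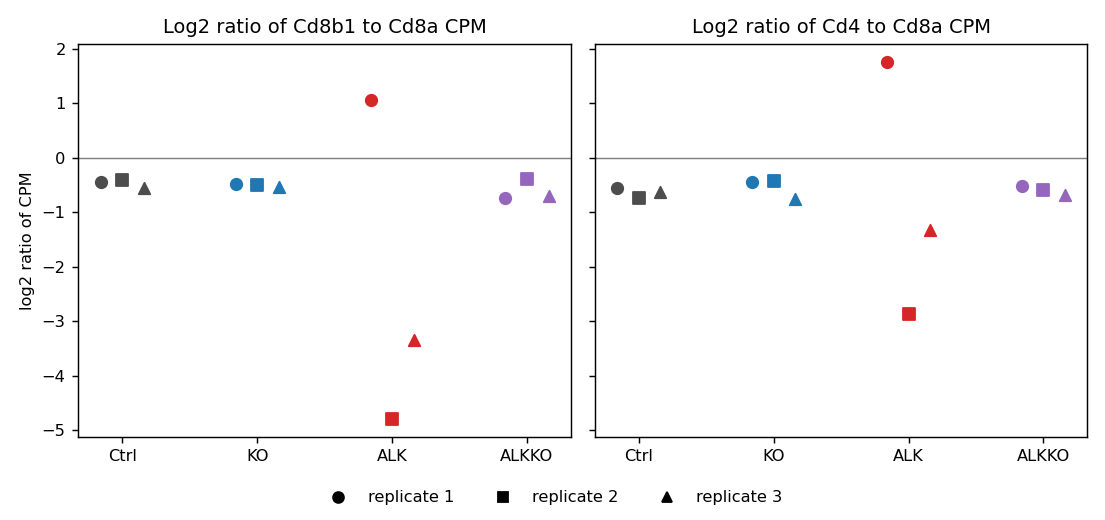
Log2 ratio of Cd8b1 to Cd8a CPM (left) and of Cd4 to Cd8a CPM (right) in each library, with the marker shape giving the replicate. The thymus libraries lie between -0.75 and -0.39, and the tumors lie on both sides of them.

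Markers of other cell types also differed in the tumors. B-cell markers summed to 25.1 to 126 CPM in ALK against 990.6 to 1338 CPM in Ctrl, and thymic epithelial markers to 7.58 to 156 CPM against 587 to 673 CPM. Most of the B-cell sums was Ighm (23.3 to 119 CPM in ALK, 929.6 to 1304 CPM in Ctrl). The other B-cell markers, at far lower levels, also lay below every Ctrl library in each tumor. Granulocyte markers summed to 0.134 to 3.59 CPM against 19.4 to 23.7 CPM, with Elane at 0 in all 3 tumors, and adipocyte markers to 0.390 to 26.1 CPM against 241 to 604 CPM. The 6 fibroblast and endothelial markers summed to 864 to 1469 CPM against 302 to 429 CPM. The higher sums came from Col1a1 (243 to 701 against 14.1 to 28.5 CPM) and Col1a2 (303 to 574 against 32.3 to 47.4 CPM). Dcn was lower (22.9 to 45.6 against 83.1 to 134 CPM), and Pdgfra, Pecam1 and Cdh5 overlapped between the groups. Sums of macrophage and dendritic (371.1 to 802 against 508 to 549.96 CPM), NK and gamma delta T (8.25 to 203 against 159 to 253 CPM) and erythroid markers (27.3 to 749 against 387.4 to 584 CPM) overlapped between the groups. For NK and gamma delta T markers the overlap came from Trdc in ALK3 (203 CPM). The other genes of that list lay below every Ctrl library in all 3 tumors. Tcrg-C1 was at 0 to 0.0780 CPM against 28.8 to 43.6 CPM, and Ncr1 was at only 0.162 to 0.214 CPM in Ctrl. The 5 T-cell identity markers summed to 625 to 960.5 CPM in the tumors and 1892 to 2324 CPM in Ctrl. Cd3e, a T-cell receptor chain that defines the lineage, was at 308, 398 and 323 CPM in the tumors and 416 to 587 CPM in Ctrl, whereas Cd3d was at 212, 2.26 and 13.5 CPM against 392 to 468 CPM. The part of cell composition in the values of the 10 genes was not tested.

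Deletion of Dnmt1 alone, in KO against Ctrl, was followed in the same genes. None of the 10 was called by edgeR (adjusted p 0.864 to 0.993, 0 at an unadjusted p under 0.05), nor by DESeq2. Over all genes 0.0187% were called. Log2 fold changes ran from -0.56 (Thy1) to 0.08 (Cd2), with SEs of 0.30 to 1.03, so changes of that size or less could not be told from 0. Without KO2 they ran from -0.43 (Cd69) to 0.21 (Cd28) with a median of 0.00, again with none called.

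KO2 lay apart from KO1 and KO3 for most of these genes. Cd4 stood at 1402, 577 and 1246 CPM in KO, Cd8a at 1919.8, 776 and 2093 CPM and Cd8b1 at 1372, 547 and 1439.8 CPM. KO2 was at 45.5%, 39.9% and 40.5% of the mean of the other 8 thymus libraries for these coreceptors. It was at 42% for Cd28 (506, 166 and 434 CPM in KO) and at 38% for Thy1 (1852, 753 and 1944 CPM). Cd5 (275, 144 and 249.98 CPM) and Cd6 (307, 167 and 284 CPM) were at 60.9% and 59.9%. Each of these 7 values lay below all other thymus libraries. The share of all tested genes that did so in KO2 was not counted. Over the 11780 tested genes that averaged 5 CPM or more, the median in KO2 was 97.7% of the mean of the other 8 libraries.

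Cd2 (195, 171 and 161 CPM) and Cd69 (63.0, 60.2 and 47.1 CPM) lay within the range of the other thymus libraries in KO2, at 102% and 82.9% of their mean. Cd24a, at 209, 194 and 234 CPM in KO, was at 89.1% there, just below the lowest other library. The genes in KO2 thus fell into a low and a near-normal group. The 5 T-cell identity markers summed to 969 CPM in KO2 against 1655 to 2324 CPM in the other 8 thymus libraries, with Cd3d, Cd3e, Cd3g and Cd247 each below all of those and Cd7 above them. Beside the high B-cell, macrophage and granulocyte sums given above, fibroblast and endothelial (881 CPM), erythroid (2422 CPM) and adipocyte markers (686 CPM) were higher in KO2 than in any other thymus library (301.7 to 811, 150.1 to 1905 and 18.7 to 604 CPM). The sum of NK and gamma delta T markers was lower, at 123 CPM against 159 to 253 CPM. This came from Trdc (78.6 against 124.5 to 204 CPM) and Tcrg-C1 (9.80 against 28.8 to 46.2 CPM). Ncr1 (9.19 CPM) and Eomes (19.3 CPM) were higher in KO2 than in any other library, and Klrb1c lay within the range of the other thymus libraries. CD24, CD2 and CD69 are also found on B cells. The part of the other cell types in these values was not tested.

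**Figure D4:**
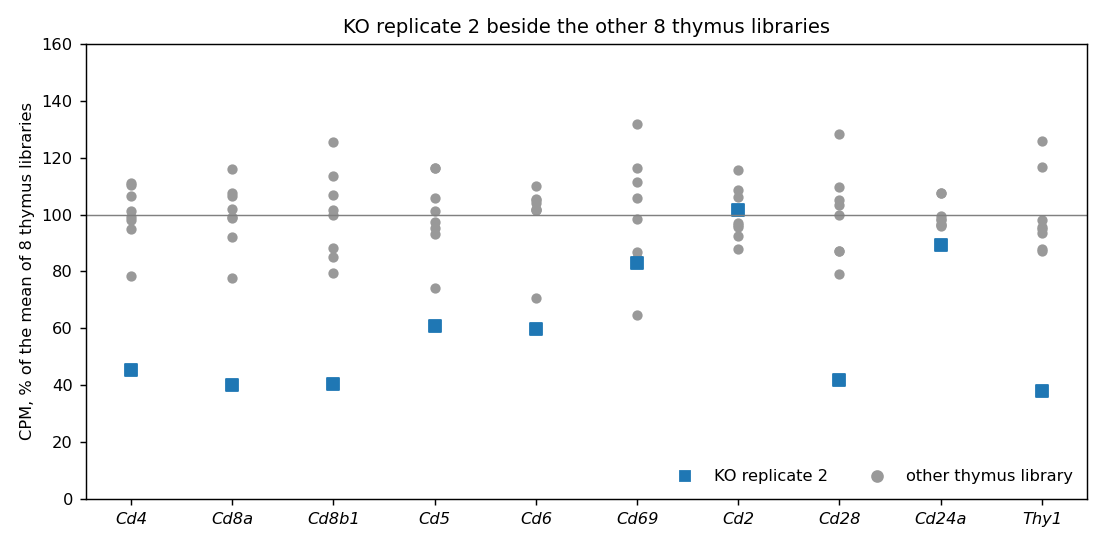
CPM of each gene in the 9 thymus libraries as a percentage of the mean of the 8 libraries other than KO replicate 2, which is drawn as a square. It lies at 38% to 60.9% for 7 genes and at 82.9% to 102% for Cd69, Cd2 and Cd24a.

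ALKKO thymocytes carry the transgene and the deletion together. None of the 10 genes was called against Ctrl by edgeR or DESeq2 (edgeR adjusted p = 0.9998 for each, 0 at an unadjusted p under 0.05), where 0.181% of all genes were. Values of Cd4 were 1256, 996 and 1203 CPM, of Cd8a 1794, 1510.0 and 1929 CPM, of Cd8b1 1070.3, 1149 and 1189.5 CPM and of Cd5 225, 175 and 221 CPM. Cd28 stood at 344.3, 344.2 and 312.2 CPM and Thy1 at 1743, 1729 and 1882 CPM. All ALKKO mice lay below all Ctrl mice for these 6 genes, by small amounts, with log2 fold changes of -0.42 (Cd8b1, SE 0.45) to -0.23 (Cd4, SE 0.49), and -0.52 to -0.14 over all alternatives. Of all genes tested, 17.5% did not overlap between these groups, and the exact permutation test gives at least 0.1 for each gene.

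The other 4 genes overlapped between ALKKO and Ctrl. Cd6 stood at 291, 197 and 284 CPM, Cd69 at 95.8, 80.9 and 71.6 CPM, Cd2 at 162, 148 and 183 CPM and Cd24a at 214, 211 and 217 CPM. Against KO, whose genotype differs by the transgene, none of the 10 was called by edgeR or DESeq2 (edgeR adjusted p = 0.9998 for each, 0 at an unadjusted p under 0.05), where 0.00623% of all genes were. Log2 fold changes ran from -0.15 (Cd28) to 0.54 (Cd69), and from -0.49 to 0.59 without KO2. Cd69 was the one gene that did not overlap between ALKKO and KO, where 6.37% of all genes tested did not.

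ALK tumors against ALKKO thymocytes compare NPM-ALK+ cells with and without the deletion, with tumor against thymus as a second difference that cannot be told apart from it. The comparison shares the ALK libraries with that against Ctrl. The genes called were Cd4, Cd8a, Cd8b1, Cd5, Cd6, Cd69 (lower in ALK) and Cd24a (higher), 7 of 10, where 19.6% of all genes were called. Log2 fold changes ran from -6.88 (Cd5, SE 0.40, adjusted p = 1.09e-05) to 1.57 (Cd24a, SE 0.43, adjusted p = 0.0226). Cd24a lost the call without any 1 ALKKO library or without ALK2 or ALK3 (adjusted p 0.06 to 0.075), with age as a term (0.067) and with only ALK and ALKKO fitted (0.101). Cd8a had an adjusted p of 0.0163, and of 0.0727 with only the groups compared.

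Whether the difference that goes with the transgene depends on Dnmt1 was tested as (ALKKO minus KO) minus (ALK minus Ctrl). Of the 10 genes 5 were called, Cd4, Cd8b1, Cd5, Cd6 and Cd69, where 8.93% of all genes were, and the term was largest for Cd5 (7.03 on the log2 scale, SE 0.49, adjusted p = 5.89e-05). Cd8a reached 3.78 (SE 1.15, adjusted p = 0.0621) and passed with DESeq2 (adjusted p = 0.00484), without ALK1 (3.22, adjusted p = 0.00439) or without ALK3 (4.47, adjusted p = 0.0397). Without ALK1 8 genes were called, with Cd2 (-1.36) and Cd24a (-1.98) on the other side of 0. ALK is the only tumor group, so tissue state goes with this term.

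The genes around these molecules were followed as 6 lists of 65 genes, of which 64 were tested. In ALK against Ctrl 17 of them were lower and 8 higher, and 39 were not called. Without KO2 the counts were 19 and 9, and without each tumor in turn 12 to 19 and 8 to 10. Over all genes tested 12% were called lower and 8.41% higher, and the counts of each list below stand beside these same shares. None was called in KO or ALKKO against Ctrl by edgeR or DESeq2, where edgeR called 0.0187% and 0.181% of all genes. At an unadjusted p under 0.05 either tool found 2 in KO and 0 in ALKKO. Among all 16052 genes edgeR found 886 and 510 at that level, so few were to be found in lists of this size.

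Of 15 regulators of the coreceptor genes, 3 were lower and 2 higher, with a median log2 fold change of -0.30. Zbtb7b, which encodes ThPOK, the factor of CD4 lineage choice, stood at 57.1 ± 8.85 CPM in Ctrl and 6.81 ± 4.72 CPM in ALK (log2 fold change -3.07, adjusted p = 0.00211). Runx3, the factor of CD8 lineage choice that silences Cd4, was lower as well, at 29.4, 21.2 and 28.5 CPM in Ctrl and 11.003, 2.003 and 5.54 CPM in the tumors (-2.08, adjusted p = 0.0318). Satb1, a chromatin organizer, went from 2754 ± 213 to 541 ± 141 CPM (-2.35, adjusted p = 0.00135). Runx1 was higher, from 159.8 ± 14.7 to 564 ± 175 CPM (1.82, adjusted p = 0.00107), and so was Lef1 (1.58, adjusted p = 0.0213), although ALK3 lay at 341 CPM, just below the Ctrl range of 343.8 to 383 CPM.

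Of 11 ligands and binding partners 4 were lower and none higher. Icos, a costimulatory receptor related to Cd28, went from 31.6 ± 4.61 to 2.16 ± 1.73 CPM (-3.85, adjusted p = 0.00323), and Cd86, a ligand of CD28 made by antigen-presenting cells, from 25.2 ± 2.98 to 5.36 ± 5.12 CPM (-2.23, adjusted p = 0.0266). Lck, the kinase bound by both coreceptors, stood at 2458, 2494 and 1790 CPM in Ctrl and 1233, 1487 and 1700 CPM in the tumors. All tumors lay below the controls, but Lck was not called (log2 fold change -0.61, SE 0.28, adjusted p = 0.13).

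Of 11 genes of T-cell receptor signalling 2 were lower and 1 higher. Rasgrp1, which activates Ras behind the receptor, stood at 542, 572 and 604 CPM in Ctrl and 10.3, 10.8 and 42.2 CPM in the tumors (-4.76, SE 0.57, adjusted p = 0.000559). The adaptor gene Lcp2 was lower (-1.31, adjusted p = 0.00801), and Cblb, a ubiquitin ligase that dampens receptor signals, was higher at 102, 321 and 363 CPM against 59.0 to 66.7 CPM (2.09, adjusted p = 0.00696).

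Of 12 selection and maturation genes 5 were lower and none higher, and the median log2 fold change was -1.39. Nr4a1 and Egr2, immediate targets of T-cell receptor signals, led with -5.27 (adjusted p = 6.89e-05) and -3.47 (adjusted p = 0.000451). Nr4a1 was at 96.6 to 121 CPM in the Ctrl mice and 1.74 to 4.84 CPM in the tumors. Cd5 and Cd69, which T-cell receptor signals are known to raise, were lower in the same tumors. Receptor signalling was not measured, and a link between these values was not tested.

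Of the 8 tested genes of the double-positive stage list 3 were lower and none higher, but not all of the list fell. Its genes are not all limited to that stage, and Dntt and Ptcra are also expressed in double-negative thymocytes. Dntt stood at 1908 ± 131 CPM in Ctrl and 1863 ± 968 CPM in ALK (-0.03, adjusted p = 0.967). Ptcra stood at 46.3 to 49.0 CPM in the controls and 424, 142 and 32.5 CPM in the tumors (2.07, adjusted p = 0.0595, not called). The chemokine receptor gene Ccr9 went from 823 ± 98.6 to 26.6 ± 38.3 CPM (-4.95, adjusted p = 0.00703) and the recombinase gene Rag2 from 368 ± 46.9 to 39.9 ± 37.3 CPM (-3.20, adjusted p = 0.00713). Rag1 was listed at 0 in all 12 libraries and could not be tested. The cause of these zeros could not be settled, so they are not read as absence of its RNA. The 7 genes of the double-negative stage list were Cd44, Kit, Il2ra, Notch1, Dtx1, Hes1 and Nrarp. Of these 5 were higher and none lower, with a median log2 fold change of 3.41. Notch1, Dtx1, Hes1 and Nrarp belong to the Notch pathway, so the median describes that pathway as well as the stage. Cd44 stood at 45.9 to 51.9 CPM in the controls and 53.5, 1597 and 533 CPM in the tumors (3.87, SE 0.93, adjusted p = 0.0123), so that ALK1, which also lacked the higher Cd24a, lay next to the controls. Nrarp, a target of Notch, stood at 6.96 to 11.5 CPM in the controls and 51.7, 305 and 36.6 CPM in the tumors (3.82, adjusted p = 0.0037).

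**Figure D5:**
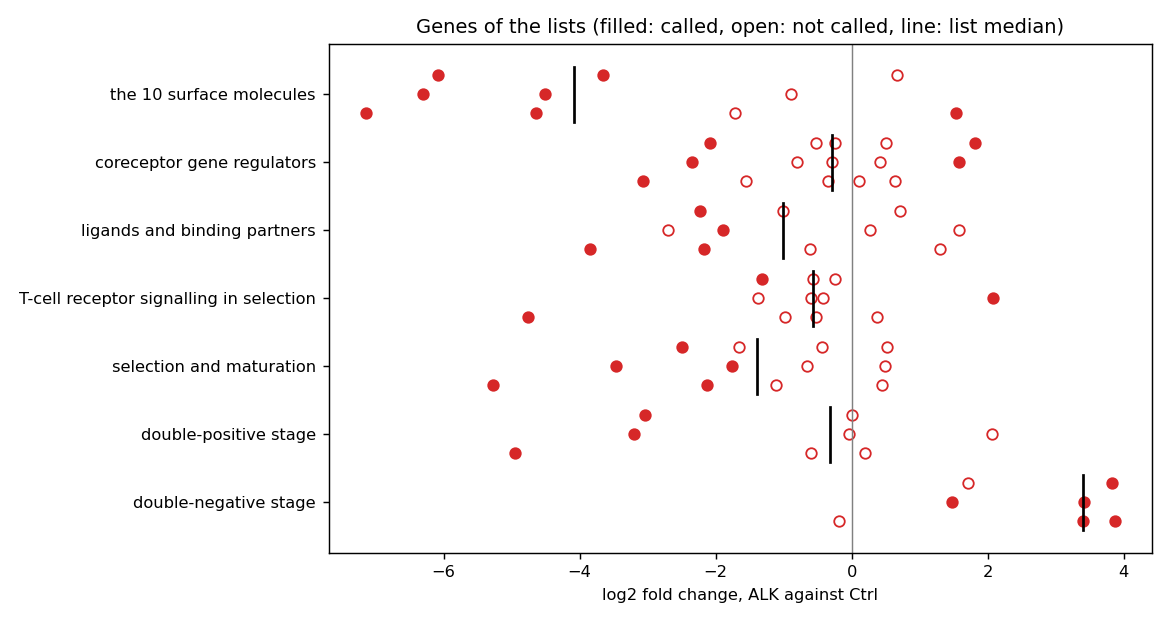
Log2 fold change of ALK against Ctrl for the 10 surface molecules and for the genes of 6 lists, with filled points for genes called, open points for genes not called and a line at each median. The medians run from -4.08 for the surface molecules to 3.41 for the double-negative stage list, which includes Notch pathway genes. Points are offset vertically so that they can be seen apart.

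Genes most like 4 of the molecules across the 12 libraries were found by Pearson's r of log2(CPM + 1). The search covered 11765 other genes that averaged at least 5 CPM over these libraries. The values describe libraries that share group, tissue and depth. For Cd4, Cd8a and Cd69 most of each r comes from the gap between tumors and thymus, and for Cd24a from the tumors in which it was high. For Cd4 they were Rasgrp1, Bcl6 and Dhrs3 (r = 0.998, 0.997 and 0.992), which kept r = 0.953, 0.871 and 0.915 over the 9 thymus libraries, among which KO2 stands apart. For Cd8a they were Spint1, Tsc22d1 and Hivep2 (r = 0.983, 0.982 and 0.98), with r = 0.903, 0.913 and 0.463 over the thymus libraries. Like Cd8a, these were lowest in ALK1, Spint1 at 0.268 CPM there against 9.37 CPM in the highest tumor.

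For Cd69 they were Nfkbia, Bcl6 and Nr4a1 (r = 0.993, 0.985 and 0.983), with r = 0.803, 0.439 and 0.145 over the 9 thymus libraries. For Cd24a they were Gpc5, Pdzrn4 and Sox8 (r = 0.996, 0.99 and 0.987). Their Spearman rank correlations with Cd24a were lower, at 0.72, 0.706 and 0.35. ALK1 held 184 CPM of Cd24a, near the thymus libraries, so these r rest on ALK2 and ALK3. These 3 genes were nearly silent in Ctrl, at means of 0.464, 0.551 and 0.445 CPM, and in the tumors ranged from 0.0671 to 42.5, from 0.134 to 129 and from 0.537 to 929 CPM. With Ctrl means this low, they reached the required mean of 5 CPM through the tumors in which they were high. The filter itself therefore favored a likeness to Cd24a, which was high in ALK2 and ALK3. Their r over the 9 thymus libraries was 0.573, 0.29 and -0.17.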

How the data were processed

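Thymocyte and T cell lymphoma RNA of 12 mice was measured in 4 groups of 3, taken from the labels. The labels give 19 to 31 wk of age, the study's methods a lower single age. The authors sequenced stranded poly(A) libraries as single-end reads of 50 nt, trimmed them with Trim Galore, aligned them to mm10 with STAR and deposited raw counts per gene from HTSeq, without normalization. Other versions than Picard 2.19.2 (submitters' processing notes), the annotation release and the strand setting are not given in the sources used here. HTSeq left out reads aligned to several places (39.2% to 51.8% of records) and reads that several genes could claim. Of 50600 identifiers, 50376 were matched to GENCODE M21 on GRCm38, also used for exon lengths, and promoters are from RefSeq (GRCm38.p6).

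Counts were tested with edgeR 4.0.16 (R 4.3.3): filterByExpr, TMM, 1 term per group over 12 libraries, robust glmQLFit, glmQLFTest, Benjamini-Hochberg adjustment over 16052 genes, calls at adjusted p under 0.05 and absolute log2 fold change above 1. SEs were derived from the F statistic. Ratios were compared by exact permutation (SciPy 1.17.1). A floor of 3 counts equals 0.159 to 0.241 CPM, and floors cover counting error only. In simulated ALK against Ctrl data with 200 of 15840 genes changed, 70.5% were recovered with 6 other calls. No libraries of a group agreed within sampling noise. The study describes the libraries as individual thymi and tumors, taken as biological replicates.

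All 10 molecules are given. From each list the text names the called genes of ALK against Ctrl with the 2 largest changes in each direction, plus Lck, Zbtb7b and Runx3, with Dnmt1 and Alk as label checks and the 3 most similar genes of Cd4, Cd8a, Cd69 and Cd24a. Rag1, Dntt, Ptcra, Cd3d, Cd3e, Cd3g, Cd247, Cd7, Ighm, Elane and the other members of the double-negative stage list were named after their values were seen. So were the named fibroblast, endothelial, NK and gamma delta T markers. One B-cell marker is not reported here and was left out of the summed markers. The members and lists were chosen with earlier results of these data known. Alternatives were DESeq2 1.42.0, its size factors, other filters, a replicate block, a term for sex or age, a fit of the compared groups alone, no fold threshold, 1 CPM added to ratios and each library left out.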

Additional observations from a re-analysis of the deposited data

Results flagged for a closer look

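For 5 of the 10 genes the difference between transgenic and non-transgenic mice was not the same with and without Dnmt1 deletion, by edgeR's test of (ALKKO minus KO) minus (ALK minus Ctrl) over all genes. On the log2 scale the term was 4.60 for Cd4, 6.33 for Cd8b1, 7.03 for Cd5, 6.11 for Cd6 and 5.19 for Cd69, with adjusted p-values of 0.0062, 0.00115, 5.89e-05, 0.00351 and 0.000493. In each of these genes all 3 ALK libraries lay below the other 9 libraries. The ALK libraries are tumors and the others thymocytes, so that transgene, deletion and tissue state cannot be told apart in this term. Groups of 3 were too small for a check of single libraries against their group.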

How the results depend on the processing

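Cd4, Cd8b1, Cd5, Cd6 and Cd69 stayed lower and called in ALK against Ctrl under each alternative that tested them. With at least 10 counts in every library Cd5 was not tested. Calls among the 10 in ALK against Ctrl numbered 5 to 9 (5 with only the groups compared), and 0 under every alternative in KO against Ctrl, ALKKO against Ctrl and ALKKO against KO. The interaction called 8 genes without ALK1 and 4 to 6 otherwise. Leaving out 1 library moved the ratio of Cd8b1 to Cd8a (ALK minus Ctrl, log2) between -3.59 and -0.67 and that of Cd4 to Cd8a between -1.46 and 0.86, and adding 1 CPM gave -1.83 and -0.18. Deviations of same-numbered mice of different groups had correlations of -0.106 to 0.426 (median -0.04). Those of differently numbered mice were -0.457 to 0.208 (median 0.02). The highest were KO1 with ALKKO1 (0.426) and KO2 with ALKKO2 (0.242), and whether numbers pair these samples was not tested further. The fit with the replicate block called 7 of the 10 in ALK against Ctrl, 7 in ALK against ALKKO, 5 in the interaction and 0 in the other comparisons. The settings without KO2 in comparisons that do not contain KO, and the counts of the lists without single tumors, were chosen after seeing the data. Cd5 in the tumors rests on 9 to 33 reads, which limits its fold change.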
